A study of Mus musculus with 82 samples.

Results

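The genes for semaphorins, plexins, ephrins, Eph receptors, Slits and Robos were followed through the accessible chromatin of mouse fibroblasts early in reprogramming toward pluripotency. Members were the protein-coding genes of the RefSeq table for GRCm38 whose symbols name these families, 58 of 21887 on chromosomes 1 to 19, X and Y. They comprise 7 class 3 semaphorins, 13 semaphorins of classes 4 to 7, 9 plexins, 5 ephrin-A, 3 ephrin-B, 9 EphA, 5 EphB, 3 Slit and 4 Robo genes. The choice rested on gene names and used no measured value.

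Of 82 samples in the series, ATAC-seq accounts for 8. ATAC-seq marks open chromatin by letting a transposase insert sequencing adapters into it. All groups were OG2-MEFs, mouse embryonic fibroblasts with a GFP reporter under Oct4 control, infected by retrovirus with OSKM, the reprogramming factors Klf4, c-Myc, Oct4 and Sox2. About 50000 cells went into each library. Each group also received 1 further construct, either Flag, read here as the control, or RNase H1(D209N), called D209N below. RNase H1 degrades RNA paired with DNA, and D209N is a change of its catalytic site. The groups were Flag day 3, D209N day 3, Flag day 7 and D209N day 7, with 2 replicates each and 1 deposited peak list per group. Which of the 2 culture media of the protocol each group received is not stated in the labels. The infected cultures are mixed populations. A region listed in 1 group and not in another can differ in the number of cells that hold it open or in how open it is per cell, and these cannot be told apart.

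Semaphorins, ephrins and Slits are guidance cues, first known from steering growing axons and later from cell sorting, vessel growth and epithelial boundaries. Secreted class 3 semaphorins act through neuropilins and plexins, while the membrane-bound classes bind plexins directly, and plexins act on small GTPases and the cytoskeleton. Ephrins are anchored in the membrane, ephrin-A by a lipid anchor and ephrin-B by a transmembrane segment, and they bind Eph receptor tyrosine kinases on the neighbouring cell. Slits are secreted ligands of Robo receptors. Fibroblasts express many members of these families, and epithelial cells use Eph receptors and ephrins at their contacts.

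The lists held between 29189 peaks (D209N day 3) and 42439 peaks (Flag day 7), and read depth is unknown. A peak belonged to the coding gene whose annotated end was nearest to the peak centre, up to 100 kb away. A gene was said to have a gene-end peak when a peak overlapped the 1 kb around either end. With 1 list per group there is no replicate error and no test was made. The intervals given are Wilson 95% intervals and cover counting error only. Absence from a list does not show closed chromatin, since openness too weak for the authors' threshold leaves no peak. Gene-end peaks stood at 5 or 6 of 9 fibroblast markers in every list, and the surface markers Thy1 and Pdgfra and the factor gene Prrx1 had none. They stood at 3 to 5 of 9 pluripotency markers, at 4, 2, 7 and 7 of 8 epithelial markers, at 3, 3, 6 and 7 of 8 neural markers, at 3 of 7 endothelial markers in each list and at 2 of 6 macrophage and blood markers in each list. Assigned peaks summed to 19, 14, 28 and 30 over the epithelial list, in which Krt18 had no gene-end peak, and to 23, 19, 36 and 32 over the neural list, in which Pax6 had none. The endothelial genes Pecam1, Cdh5, Emcn and Tie1 and the blood genes Ptprc, Csf1r, Adgre1 and Itgam had none. The same held for the pluripotency genes Esrrb, Nanog, Dppa5a and Tdgf1. Pou5f1 and Sox2, the pluripotency genes with a gene-end peak in every list, encode the delivered factors Oct4 and Sox2. The lists cannot separate reads of the delivered copies from those of the cells' own genes. Erg, Tek and Kdr of the endothelial list and Cd68 and Spi1 of the blood list had a gene-end peak in every list. Assigned peaks summed to 28, 29, 38 and 36 over the fibroblast list and to 18, 8, 19 and 22 over the pluripotency list. The sums were 21, 21, 30 and 25 over the endothelial list and 5, 6, 9 and 7 over the blood list. Where several values follow each other here and below, the order is Flag day 3, D209N day 3, Flag day 7 and D209N day 7. Epithelial and neural markers thus had more gene-end peaks at day 7, on the same days as the guidance genes described next, and the part of these cell types in the results was not tested.

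Of the 58 guidance genes 40 had a gene-end peak at day 3 in Flag (69.0%, 56.2 to 79.4) and 38 in D209N (65.5%, 52.7 to 76.4). At day 7 the numbers were 48 (82.8%, 71.1 to 90.4) and 47 (81.0%, 69.1 to 89.1). Over all coding genes the shares were 55.9%, 51.7%, 61.5% and 60.4%. The state was the same in all 4 lists at 42 of the genes, of which 34 had the peak in every list and 8 in none. The 34 were 58.6% of the genes, where 50.6% of coding genes had the peak in every list. The 8 were 13.8%, where 37.0% of coding genes had it in none. The remaining 16 are described below by role. The genes had 166, 125, 201 and 194 assigned peaks, a mean of 2.86, 2.16, 3.47 and 3.34 per gene where the mean coding gene had 1.44, 1.17, 1.75 and 1.66. They are long, with a median length of 38.0 kb against 17.2 kb over coding genes. Across these 58 genes length and the total of assigned peaks had a Spearman rho of 0.474, a description over genes that share the same 4 lists, against 0.519 over all coding genes. Shares of genes with more or fewer peaks were not compared at matched length or matched number of peaks. Where the strand was known, 33 of 35 genes marked in Flag day 3 and 42 of 43 in Flag day 7 had the peak at the 5′ end. At 3 or 4 genes per list the marking peak also lay within 1 kb of the end of a neighbouring gene.

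**Figure D1:**
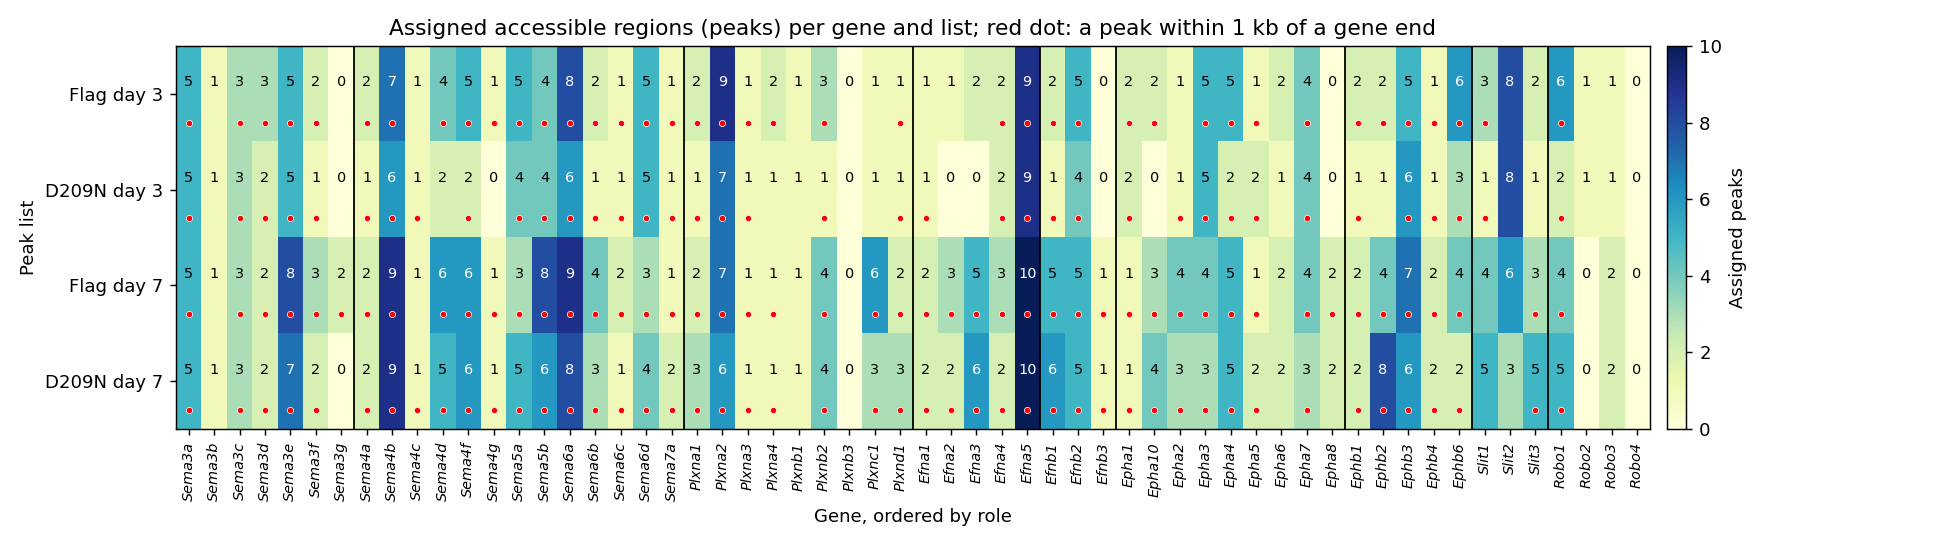
Number of peaks assigned to each of the 58 genes (columns, grouped by role between the black lines) in the 4 peak lists (rows), with colour and digit giving the number and a red dot marking a peak within 1 kb of a gene end. Efna5, Sema4b, Sema6a and Plxna2 have the highest totals, Robo4 and Plxnb3 have 0 in every list, and the dots of the ephrin-A genes fill in at day 7.

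Between day 3 and day 7 the question is which guidance genes opened as reprogramming went on. A gene-end peak was called gained when listed at day 7 and not at day 3. In Flag cells 9 of the 58 genes gained one (15.5%, 8.38 to 26.9), where 6.23% of coding genes did. In D209N cells 10 gained one (17.2%, 9.64 to 28.9), where 9.02% did. Among the genes that had no gene-end peak at day 3 the gaining share was 50.0% in each arm (9 of 18 and 10 of 20), against 14.1% and 18.7% over coding genes in that state. Only Slit1 lost a gene-end peak, in both arms, where 0.704% of coding genes lost one in Flag and 0.32% in D209N. No set of genes was tested against another, so these shares describe the 4 lists.

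**Figure D2:**
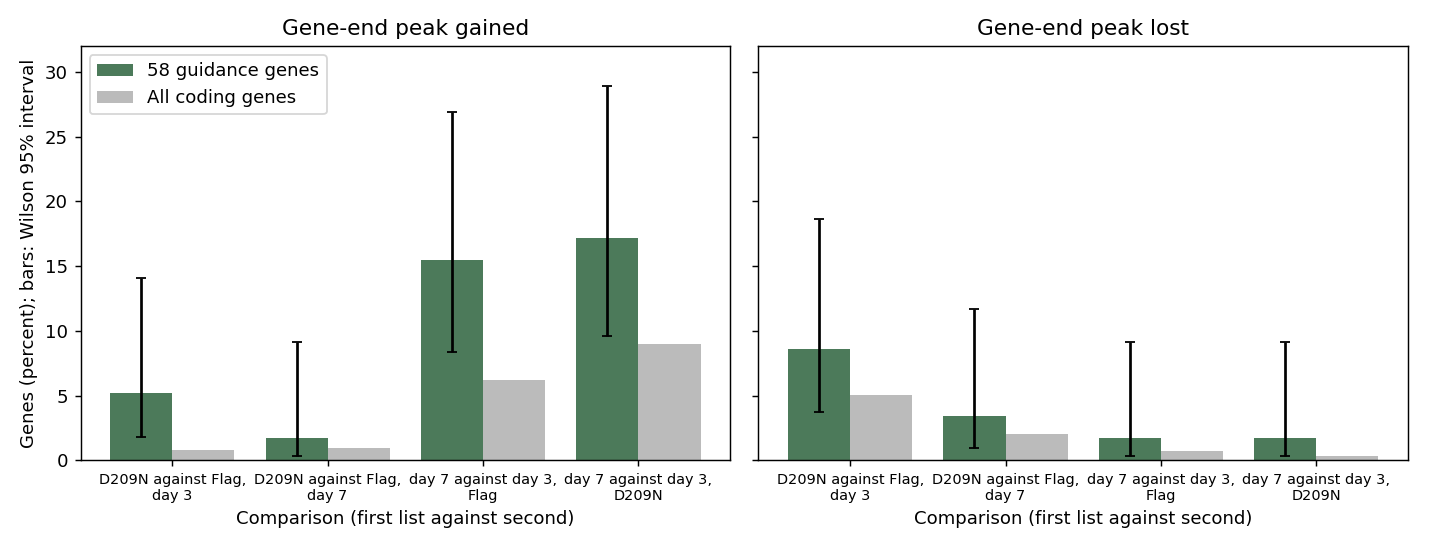
Share of genes (percent) that gained (left) or lost (right) a gene-end peak in each comparison, for the 58 guidance genes (green, with Wilson 95% intervals) and all 21887 coding genes (grey). The green bars for day 7 against day 3 stand at 15.5% in Flag and 17.2% in D209N, against 6.23% and 9.02% for the grey bars.

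Among the ephrin ligands, gene-end peaks stood at 2 of 5 ephrin-A genes in Flag day 3, 3 in D209N day 3 and all 5 in both day 7 lists. Of these genes 3 lie in a row on chromosome 3, Efna1 (89271730 to 89280951), Efna3 (89313899 to 89322939) and Efna4 (89333393 to 89338028).
Efna3 had 2, 0, 5 and 6 assigned peaks. The region at its 5′ end (chr3:89322507-89323165) was listed in both day 7 lists and in neither day 3 list. Regions 7.23 and 14.5 kb downstream of that end were already listed in Flag day 3. Efna4, its neighbour, had its 5′ region (chr3:89337497-89338175) in all 4 lists.

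Efna1, which binds EphA2 among other receptors, had 2 annotated start sites in different states. The region at the inner start, 1.2 kb inside the gene, was listed in all 4 lists. The region at the outer start (chr3:89280818-89281316) was listed in both day 7 lists only. Its gene-end mark in D209N day 3 came from the edge of the inner peak, which a Flag day 3 peak overlapped outside the window, so the arms did not differ there in presence. Efna2, on chromosome 10 from 80179482 to 80190010, had 1, 0, 3 and 2 peaks. Regions at its 5′ end (chr10:80179381-80180013) and just past its 3′ end were listed in both day 7 lists and in neither day 3 list. Efnb3, an ephrin-B gene with no peak at day 3, had 1 region in both day 7 lists, 0.756 kb inside its end with the higher coordinate (chr11:69560238-69560551). Efnb1 had 2, 1, 5 and 6 peaks. Its 5′ region was listed throughout, regions 67.9 and 83.6 kb past its 3′ end in both day 7 lists only, and a region 50.3 kb past that end in all lists but D209N day 3. Efna5 and Efnb2 had the most peaks of their groups, with 9, 9, 10 and 10 and with 5, 4, 5 and 5, nearly the same number in every list.

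The promoters that gained a peak by day 7 in both arms are printed here, so that their sequence can be set beside their state. RefSeq lists 67 promoter windows (GRCm38.p6, from 250 bases before to 50 bases after a start) for 51 of the 58 genes. Overlap with a peak gave each window its state. Windows listed in both day 7 lists and neither day 3 list numbered 5 (7.46%, against 3.45% of 21263 windows of coding genes), at Efna1, Efna2, Efna3, Plxnc1 and Slit3. The 250 bases before the start are printed 5′ to 3′ on the strand of the gene. The inner start of Efna1 is added as a window of the same gene with a peak in every list. Epha2 is added as 1 of 2 windows, with that of Sema7a, absent only from Flag day 3. At Sema7a a Flag day 3 peak lay just outside the window, and the merged region there was in all 4 lists. Ephb2 is added as 1 of 5 windows absent only from D209N day 3. Capitals mark the GC box GGGCGG, a motif of Sp and KLF factors, or its reverse complement.
Efna1, outer start (chr3:89280952-89281201, minus strand, both day 7 lists only): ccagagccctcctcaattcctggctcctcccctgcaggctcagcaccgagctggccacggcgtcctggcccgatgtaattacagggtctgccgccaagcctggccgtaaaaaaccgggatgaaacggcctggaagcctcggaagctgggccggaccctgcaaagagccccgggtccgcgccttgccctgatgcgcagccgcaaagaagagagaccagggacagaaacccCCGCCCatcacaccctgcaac
Efna1, inner start (chr3:89279646-89279895, minus strand, all 4 lists): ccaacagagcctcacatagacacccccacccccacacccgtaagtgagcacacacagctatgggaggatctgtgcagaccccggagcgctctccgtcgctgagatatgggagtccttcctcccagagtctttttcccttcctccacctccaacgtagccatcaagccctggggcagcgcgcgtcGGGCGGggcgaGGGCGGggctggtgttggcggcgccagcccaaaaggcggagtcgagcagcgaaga
Efna2 (chr10:80179232-80179481, plus strand, both day 7 lists only): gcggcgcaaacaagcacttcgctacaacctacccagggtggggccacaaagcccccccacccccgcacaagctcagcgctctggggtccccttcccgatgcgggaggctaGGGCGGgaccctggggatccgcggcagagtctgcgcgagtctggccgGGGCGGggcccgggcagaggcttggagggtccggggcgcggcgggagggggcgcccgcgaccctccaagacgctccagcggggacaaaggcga
Efna3 (chr3:89322940-89323189, minus strand, both day 7 lists only): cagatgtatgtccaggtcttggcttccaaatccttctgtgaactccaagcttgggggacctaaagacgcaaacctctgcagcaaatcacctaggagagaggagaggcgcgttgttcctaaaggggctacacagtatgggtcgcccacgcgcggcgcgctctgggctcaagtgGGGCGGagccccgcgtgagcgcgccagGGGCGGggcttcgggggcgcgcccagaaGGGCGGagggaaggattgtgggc
Plxnc1 (chr10:94944846-94945095, minus strand, both day 7 lists only): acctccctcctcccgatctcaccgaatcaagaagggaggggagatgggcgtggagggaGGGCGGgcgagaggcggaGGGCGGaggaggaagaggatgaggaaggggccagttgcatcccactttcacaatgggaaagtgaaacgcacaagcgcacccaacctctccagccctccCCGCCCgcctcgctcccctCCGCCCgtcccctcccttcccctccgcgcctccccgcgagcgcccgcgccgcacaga
Slit3 (chr11:35121206-35121455, plus strand, both day 7 lists only): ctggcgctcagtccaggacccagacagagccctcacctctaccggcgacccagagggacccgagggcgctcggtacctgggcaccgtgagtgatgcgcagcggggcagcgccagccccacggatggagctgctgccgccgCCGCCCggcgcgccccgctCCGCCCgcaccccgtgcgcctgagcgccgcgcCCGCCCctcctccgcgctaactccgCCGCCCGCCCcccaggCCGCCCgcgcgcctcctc
Epha2 (chr4:141300971-141301220, plus strand, all but Flag day 3): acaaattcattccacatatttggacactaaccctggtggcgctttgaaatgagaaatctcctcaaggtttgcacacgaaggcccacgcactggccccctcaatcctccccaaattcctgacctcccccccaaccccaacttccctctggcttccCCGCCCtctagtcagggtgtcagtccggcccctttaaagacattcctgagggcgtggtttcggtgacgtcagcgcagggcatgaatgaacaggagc
Ephb2 (chr4:136836013-136836262, minus strand, all but D209N day 3): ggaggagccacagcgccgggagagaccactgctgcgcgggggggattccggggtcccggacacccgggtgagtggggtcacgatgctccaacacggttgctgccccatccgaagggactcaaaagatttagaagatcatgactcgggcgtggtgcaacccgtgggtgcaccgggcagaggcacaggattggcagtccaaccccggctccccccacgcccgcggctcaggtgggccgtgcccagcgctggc

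The 5 promoters that gained a peak by day 7 were rich in CpG dinucleotides, with 16 (Efna1), 25 (Efna2), 19 (Efna3), 22 (Plxnc1) and 35 (Slit3) in 250 bases. The median was 14 over the coding-gene windows of the same state, 18 over those listed in all 4 lists and 2 over those in none. All 5 held at least 1 GC box on either strand, from 1 in Efna1 to 6 in Slit3 with overlapping matches counted, as did 47 of the 67 windows (70.1%) and 42.6% of all coding-gene windows. Ephb2 held none. The E-box CACGTG bound by Myc, the AP-1 site TGANTCA and the octamer ATGCAAAT were absent from the 8 printed stretches, on both strands. They occur in 6.63%, 6.13% and 1.58% of coding-gene windows. The TEAD motif GGAATG had 2 matches in Epha2 and in none of the other printed stretches, against 11.7% of all windows with at least 1. A match is a run of letters and not a bound site, and GC boxes are common in CpG-rich promoters of any state.

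The Eph receptors answer these ligands. Epha2, an EphA receptor prominent in epithelial cells, had 1, 1, 4 and 3 peaks. The region at its 5′ end (chr4:141301157-141302238) was listed in D209N day 3, Flag day 7 and D209N day 7, and a region 14.2 kb upstream in both day 7 lists only. Epha8 had no peak at day 3 and 2 in each day 7 list, with a peak of 312 bp at its 5′ end in Flag day 7 alone. Epha10 had 2, 0, 3 and 4 peaks, and its 5′ region, which also lies at an end of Maneal, was listed in all but D209N day 3. Ephb2 differed most between the day 7 lists, with 2, 1, 4 and 8 peaks. Regions listed in D209N day 7 alone numbered 5 at Ephb2, spread from 4.95 kb upstream of the 5′ end to 187 kb downstream of it, and 4 of them were between 218 and 431 bp wide.

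The other EphB genes and all other EphA genes but Epha6, which had none, kept their gene-end peak in all 4 lists. Epha3, level with Epha4 in total, and Ephb3 had the most peaks of their groups, with 5, 5, 4 and 3 and with 5, 6, 7 and 6. Epha4, a receptor for ligands of both ephrin classes, had 5 peaks in every list except D209N day 3, where it had 2. Against Flag day 3 the difference lay 18.2, 43.8 and 56.3 kb inside the gene and not at its start. Both day 7 lists held the regions at 18.2 and 43.8 kb but not that at 56.3 kb. Flag day 7 had a further region 10.2 kb inside the gene and D209N day 7 had another 70.5 kb upstream. Ephb6, a receptor without kinase activity, had 6, 3, 4 and 2 peaks, the fewest at day 7 in D209N.

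**Figure D3:**
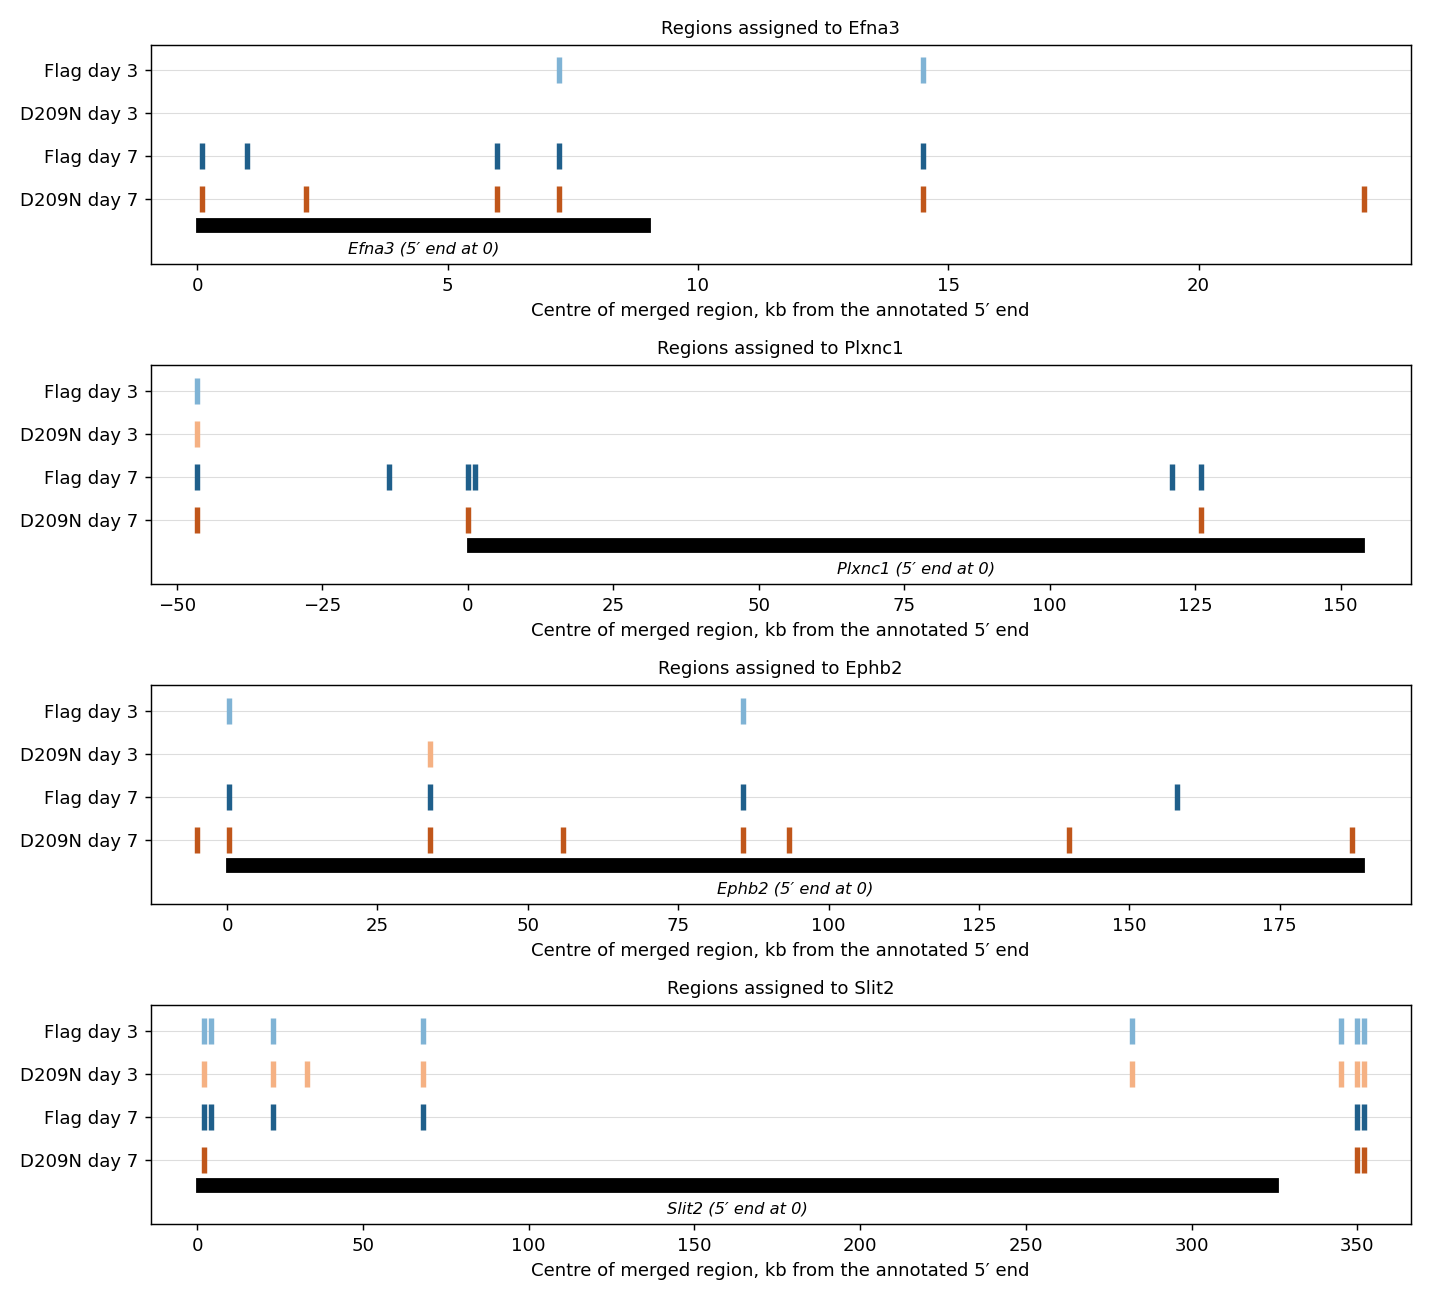
Centres of the merged regions assigned to Efna3, Plxnc1, Ephb2 and Slit2 (ticks) in the 4 lists (rows), in kb from the annotated 5′ end of each gene, with the gene as a black bar. Regions at the 5′ ends of Efna3 and Plxnc1 appear only in the day 7 rows, that of Ephb2 is missing from the D209N day 3 row, and Slit2 has 8 ticks in each day 3 row and 3 in D209N day 7.

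Among plexins, the semaphorin receptors, Plxnc1 stood out by its start. Plxnc1 (chromosome 10, 94790866 to 94945015), the receptor of Sema7a, had 1, 1, 6 and 3 peaks. At day 3 only a region 46.5 kb upstream was listed, and at day 7 the 5′ end itself (chr10:94944637-94945344) and a region 126 kb downstream of it appeared in both arms. The 3 further regions of Flag day 7 were between 246 and 286 bp wide and were not in D209N day 7. Plxna2 had the most peaks of the plexins, 9, 7, 7 and 6, in 15 merged regions of which only 2 were in every list. Within 20 kb it had 1, 3, 2 and 1 peaks, so that the difference between the arms at day 3 and that between the Flag days turned in sign, while the other two did not. Both Flag day 7 peaks lay in the region at the 5′ end, which Flag day 3 held as 1 peak. D209N day 3 held that region as 2 peaks, besides a region 6.31 kb inside the gene listed there alone. Plxna4 had its end region (chr6:32587811-32588616) in all lists but D209N day 3. Plxnb3 had no assigned peak in any list. The other plexins kept the same gene-end state throughout, and Plxnb1, with none, had a peak at its annotated inner start in every list.

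Among the semaphorins, gene-end state differed among the lists at Sema3g, Sema4c, Sema4d and Sema4g, 4 of the 20 genes. Class 3 semaphorins had gene-end peaks at 5, 5, 6 and 5 of 7 genes and class 4 to 7 semaphorins at 12, 11, 12 and 13 of 13. Sema3g had no peak at day 3 or in D209N day 7 and 2 in Flag day 7, of which the 1 at its 5′ end was 139 bp wide. Sema3a, a secreted repellent, had 5 merged regions with a peak in every list. At its 5′ end the day 7 peaks of Flag and D209N, 159 and 277 bp wide, did not overlap each other and fell in 1 region through the day 3 peaks. Sema3e, a ligand of Plxnd1, had 5, 5, 8 and 7 peaks, and its regions in both day 7 lists only lay 32.1 kb upstream and 48.0 and 86.1 kb downstream of its 5′ end. Within 20 kb of its ends it had no difference between days. Sema4b, with 7, 6, 9 and 9 peaks, and Sema6a, with 8, 6, 9 and 8, had the highest totals of the semaphorins. Sema5b had 4, 4, 8 and 6.

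The class 4 semaphorins Sema4d, Sema4g and Sema4f differed between the arms. Sema4d, a ligand of Plxnb1, had 4, 2, 6 and 5 peaks, and Sema4g had 1, 0, 1 and 1. Each had its 5′ region in all lists but D209N day 3, although the Sema4g peak of Flag day 3 was only 40 bp wide. Sema4f had 5, 2, 6 and 6 peaks with its 5′ peak present throughout. At day 3 it had 2 in each arm within 20 kb of its ends, and also without the narrowest 25% of each list. Sema4c was marked in the D209N lists only, through the edge of a peak 990 bp from its 3′ end that belongs to Ankrd39 and was overlapped in both Flag lists.

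The Slit ligands went in different directions with the day. Slit2 (chromosome 5, 47981291 to 48307735) had 8, 8, 6 and 3 peaks, and its deficit of day 7 against day 3 in D209N was the largest among the 58 genes. Within 20 kb it had 3, 2, 2 and 1 peaks, and without the narrowest 25% of each list 6, 6, 3 and 3. A region at its inner annotated start, 2 kb inside the gene, and regions 23.5 and 25.1 kb past its 3′ end were listed in all 4 lists. Regions 44.2 kb before and 18.7 kb past its 3′ end were listed on day 3 only in both arms, and those 22.8 and 68.2 kb inside the gene were missing from D209N day 7 alone. Slit3 (chromosome 11, 35121456 to 35708507) had 2, 1, 3 and 5 peaks, and its 5′ region (chr11:35120973-35121697) was in both day 7 lists and neither day 3 list. Slit1 had 3, 1, 4 and 5 peaks. It lost a region just outside its end with the lower coordinate (chr19:41597307-41597720), which both day 3 lists held, while 3 regions between 31.9 and 72.6 kb from that end were in both day 7 lists only. Within 20 kb it had 2, 1, 0 and 0, and the sign of its differences between days turned.

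Of the Robo receptors, Robo1 had its 5′ region in every list and 6, 2, 4 and 5 peaks. Robo2, Robo3 and Robo4 had no gene-end peak. Robo4, an endothelial receptor, had no assigned peak at all, and Robo2 had 1, 1, 0 and 0. The genes Robo1 and Robo2 are 1020 and 1560 kb long, so most of their interior lies over 100 kb from an end and was not assigned. Counted anywhere inside the gene, peaks numbered 18, 9, 12 and 12 in Robo1, 12, 12, 6 and 6 in Robo2 and 6, 4, 9 and 11 in Slit3. A start of Robo2 in its interior had a peak in all 4 lists. The Robo2 interior thus had fewer peaks at day 7 in both arms and the Slit3 interior more.

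At day 3 the comparison of the arms asks how D209N cells differed early. The D209N list was shorter, with 0.81 times the assigned peaks of Flag over all genes and 0.753 times over the guidance genes. A gene-end peak of Flag was absent from D209N at 5 of the 58 genes (8.62%, 3.74 to 18.6), where 5.03% of coding genes lacked one: Epha10, Ephb2, Plxna4, Sema4d and Sema4g. All 5 had it in both day 7 lists. They were counted among the gains of D209N by day 7 above, and those counts share the D209N day 3 list. Genes with a mark in D209N only were Efna1, Epha2 and Sema4c (5.17%, 1.77 to 14.1), where 0.809% of coding genes had one. Of these Epha2 alone had no overlapping Flag peak. Counted in that way, 1 of the 58 genes had a mark in D209N only, where 0.74% of coding genes had one.

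By assigned peaks 27 genes had fewer in D209N at day 3 (46.6%, 34.3 to 59.2) and 2 had more (3.45%, 0.951 to 11.7), where 24.1% and 6.39% of coding genes did. The median difference was 0 for the 58 genes and for coding genes. Deficits of at least 3 peaks occurred at Epha4, Ephb6, Robo1 and Sema4f, 6.9% of the genes where 2.18% of coding genes had one. Within 20 kb the Flag and D209N numbers were 3 and 2 at Epha4, 2 and 1 at Robo1 and 2 and 2 at Sema4f. None had an excess of at least 3, as 0.0411% of coding genes did. With the narrowest 25% of the peaks of each list left out, 17 had fewer and 6 more. List length moved with this result, and its part was not tested.

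By day 7 the arms lay closer, with 0.965 times as many assigned peaks in D209N as in Flag over the guidance genes and 0.947 times over all genes. Gene-end states differed at Epha8 and Sema3g, in Flag only (3.45%, 0.951 to 11.7, where 2.02% of coding genes lacked one in D209N), and at Sema4c, in D209N only (1.72%, where 0.973% of coding genes had one). With no overlapping Flag peak allowed, 0 of the 58 genes were marked in D209N only, where 0.818% of coding genes were. Of the 58 genes 13 had more peaks in D209N (22.4%, where 11.2% of coding genes did) and 18 had fewer (31.0%, where 17.7% did). Ephb2 was the gene with at least 3 more (0.343% of coding genes), and Slit3 and Sema5a each had 2 more. Plxnc1 and Slit2 had 3 fewer (0.9% of coding genes). Without the narrowest 25% of each list, Flag and D209N had 3 and 5 at Ephb2, 3 and 2 at Plxnc1, 3 and 3 at both Sema5a and Slit2, and 2 and 1 at Slit3, where the sign turned.

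Between the days, 29 of the 58 genes held more assigned peaks on the later day in Flag cells and 11 held fewer (29.0% and 11.8% of coding genes). In D209N cells 35 held more and 8 fewer (60.3% and 13.8%, where 33.3% and 7.21% did). The median difference was 0.5 in Flag and 1 in D209N, against 0 over coding genes in each. Increases of at least 3 peaks occurred in Flag at Efna3, Efnb1, Epha2, Plxnc1, Sema3e and Sema5b (4.48% of coding genes). In D209N they occurred at 12 genes (5.96% of coding genes), with Efna3, Efnb1 and Ephb2 the largest. These largest increases were 6, 5 and 7 peaks, but 6, 2 and 3 within 20 kb. With the narrowest peaks of each list left out they were 2, 4 and 4. In Flag the Efna3 increase stayed at 3 under both settings. That of Efnb1 in Flag went from 3 to 0 within 20 kb and to 2 without the narrowest peaks. A decrease of at least 3 occurred at none in Flag (0.923% of coding genes) and at Slit2 in D209N (0.242%). In total the 58 genes had 1.21 times as many assigned peaks at day 7 as at day 3 in Flag and 1.55 times in D209N, where all coding genes gave 1.22 and 1.43. The 2 arms have their own lists on both days, and the difference between them was not tested.

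Merged over the 4 lists, the peaks made 271 regions assigned to 56 of the genes. Regions present in all 4 lists numbered 89 (32.8%, 27.5 to 38.6), where 41.4% of the 48059 assigned regions of coding genes were. Regions in both day 7 lists only numbered 39 (14.4%, 10.7 to 19.1, against 13.4%), and those in both day 3 lists only 13 (4.8%, 2.82 to 8.03, against 3.57%). Regions missing from D209N day 3 alone numbered 27 (9.96%, against 8.44%). The regions of the guidance genes lay farther from gene ends, with 18.8% within 1 kb and a median of 18.5 kb, where assigned regions of all coding genes gave 27.2% and 8.31 kb. Of the 71 regions that Flag cells acquired by day 7, 59.2% (47.5 to 69.8) were present in D209N day 7, where 58.5% were over coding genes. Of the 39 that Flag cells lost, 15.4% (7.25 to 29.7) were present there, where 20.6% were. The fate of these regions in the other arm thus lay near that of coding genes as a whole.

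**Figure D4:**
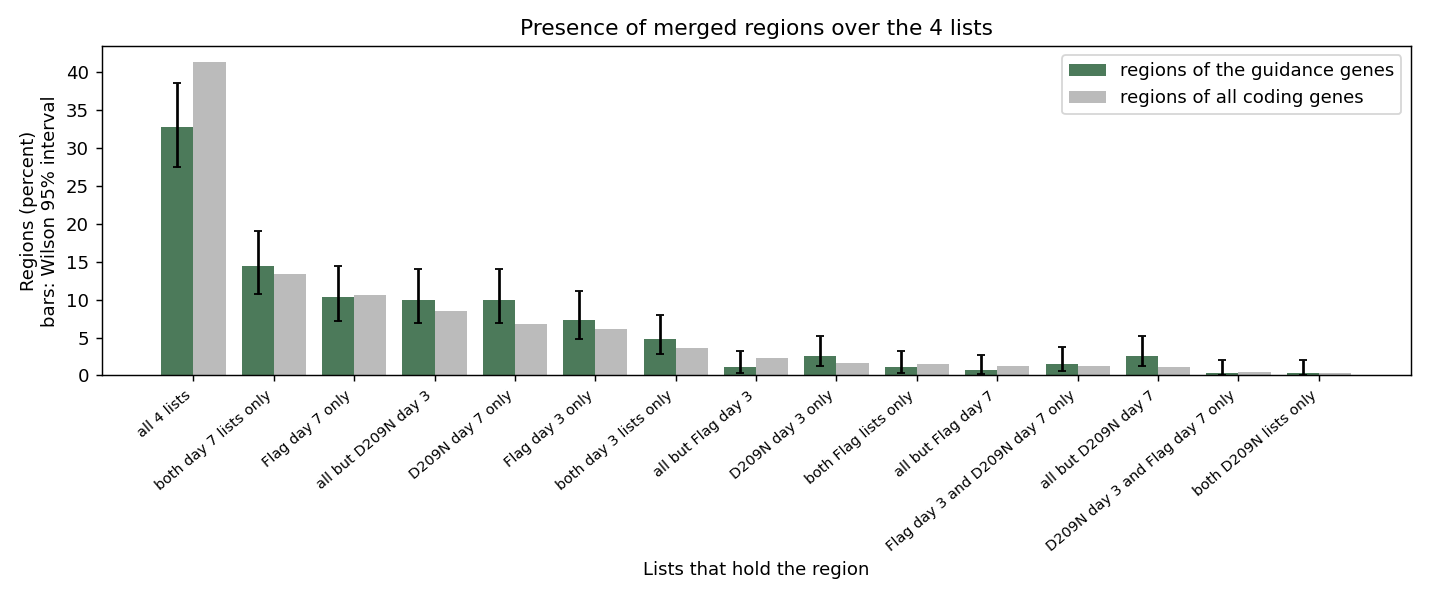
Share (percent) of merged regions held by each combination of the 4 lists, for the 271 regions of the guidance genes (green, with Wilson 95% intervals) and the 48059 regions of all coding genes (grey). The green bar for all 4 lists stands at 32.8% against 41.4%, and the grey value of both day 7 lists only, 13.4%, lies inside the green interval.

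The partners of these pathways were described from a list of 20 coreceptors and other guidance cues and 30 effectors. The coreceptors and cues had gene-end peaks at 14, 12, 16 and 15 genes and the effectors at 25, 19, 24 and 26. The class 3 coreceptor gene Nrp2 had 14, 13, 12 and 13 peaks and Nrp1 8, 6, 4 and 6. In both arms Flrt1, an adhesion protein of guidance, gained a gene-end peak by day 7. At day 3, D209N lacked a gene-end peak of Flag at 6 of the 30 effectors, where 5.03% of coding genes did. They were Crmp1, Dpysl2 and Dpysl5, collapsin response proteins that act downstream of semaphorins, and Mical1, Pick1 and Fes. By day 7 all 6 had it in D209N, and 5 of them, all but Fes, had it in Flag. Of the same collapsin response family, Dpysl3 had a gene-end peak in every list and Dpysl4 in D209N day 7 only. Among the 20 coreceptors and cues, D209N lacked a gene-end peak of Flag at day 3 at 2, Ntn3 and Draxin.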

How the data were processed

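ATAC-seq was the assay of the 8 samples used, 4 groups of 2 replicates. The authors deposited 1 list of intervals per group, with start and end coordinates and a peak name and no score, signal or count, so depth is unknown. CASAVA and Bowtie2 2.3.2 with mm10 and GRCm38.p5 appear in the submitters' processing notes, with no role stated. Not given in the sources used here are the peak caller, its threshold and the handling of replicates. Lists were matched to groups by the arm and day in the peak names, which all carry rep1, and mitochondrial intervals were left out. Assignment, gene-end marking and merging at 1 bp of overlap used pandas 2.3.3 and numpy 2.4.6 (Python 3.11.15), and scipy 1.17.1 gave the Wilson intervals. Assignment and gene-end marking were tested on simulated data, and merging was not. Gene ends, names and promoter sequences came from RefSeq GRCm38.p6, which shares the main chromosomes with the files' build. A promoter window counted as open when a peak shared 1 bp with its 300 bases. Strand came from the promoter table.

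Named genes were those whose gene-end state differed among lists, the 3 largest differences of at least 2 peaks in each direction of each of the 4 comparisons, the gene with most peaks of each role and genes without peaks. Others were named after their values were seen, among them Sema3a, Sema6a, Ephb6, Efna4, Epha6, Robo2, Plxnb1 and the neuropilins. The members and lists were chosen with earlier results of these data known. Alternatives were other windows, distances, merging rules and a width filter.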

Additional observations from a re-analysis of the deposited data

Results flagged for a closer look

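At 2 genes the difference in assigned peaks between day 3 and day 7 had opposite signs in the 2 arms, under the assignment to the nearest gene end within 100 kb. Robo1 went from 6 to 4 peaks in Flag and from 2 to 5 in D209N, so that the change in D209N exceeded that in Flag by 5 peaks. Sema5a went from 5 to 3 in Flag and from 4 to 5 in D209N, a difference of 3 peaks. Within 20 kb both genes had 2 peaks on each Flag day and 1 and 2 in D209N, so Flag did not differ between days. With the nearest gene body, Sema5a had fewer peaks at day 7 in both arms, from 6 to 3 and from 7 to 5, while Robo1 went from 21 to 13 in Flag and from 10 to 14 in D209N. With merged regions Sema5a had 4 on each D209N day, and Robo1 was as given. Without the narrowest 25% of each list the signs stayed opposite at both genes, from 4 to 3 and from 2 to 3 at Sema5a and from 5 to 4 and from 2 to 4 at Robo1. The share of coding genes with opposite signs in the 2 arms is not given here, so these 2 genes are a description only. Each list is 1 value per group, so the difference between the arms was not tested.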

How the results depend on the processing

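The number of genes with a gene-end peak in each list stayed within 1.5 times its value under all 4 alternatives. Genes marked in D209N only at day 3, 3 in number, fell to 1 with a 2 kb window, with the peak centre required within 1 kb, and with no overlapping Flag peak allowed, and the 1 such gene at day 7 fell to 0 under the same settings. With the narrowest 25% of each list left out, genes marked in Flag only at day 7 numbered 1, losses by day 7 numbered 2 in each arm, and 6 genes had more and 17 fewer peaks in D209N at day 3. Within 20 kb the assigned peaks were 92, 67, 118 and 116, genes with fewer peaks at day 7 were 6 in Flag and 5 in D209N, and regions in all 4 lists, in both day 7 lists only and in both day 3 lists only were 58, 20 and 4. Within 20 kb the sign also turned for Plxna2, to 2 more peaks in D209N than in Flag at day 3 and 1 more in Flag at day 7 than at day 3, and for Slit1, to a difference of -1 between the D209N days. At the Plxna2 start 1 region present in every list counted as 2 peaks in D209N day 3 and in Flag day 7. The Slit3 difference between the arms at day 7 turned to -1 without the narrowest 25%. The causes were not tested. Of 51 differences of named genes, 48 with the nearest gene body, 49 with merged regions, 16 within 20 kb and 19 without the narrowest 25% stayed within 1.5 times. No paired analysis was possible because each group has 1 list with no values per replicate. For the same reason no replicate could be left out.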

Other observations

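Of the 58 genes 15 are longer than 200 kb, and peaks deeper than 100 kb from both ends of them are assigned to no gene end. Such deep peaks numbered 51 and 38 at day 3 in Flag and D209N and 32 and 37 at day 7. Over the 990 coding genes of that length they numbered 1891, 1428, 1741 and 1729. In Robo1 they numbered 15, 8, 9 and 9, in Robo2 12, 11, 6 and 6, in Epha6, an EphA receptor gene 969 kb long, 4, 3, 1 and 1, and in Slit3 5, 3, 8 and 9. The Robo2 and Epha6 interiors thus had fewer deep peaks at day 7 in both arms, and the Slit3 interior had more. These counts were added after the lists had been seen.

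Of the 8 genes without a gene-end peak in any list, 4 had a peak at an annotated start inside the gene. Plxnb1, Slit2 and Robo2 had it in all 4 lists and Epha6 in all but D209N day 3. Just upstream of that Epha6 window a further region (chr16:60606013-60606620) was in all 4 lists. The same count over coding genes without a gene-end peak is not given here, so these 4 genes are a description only.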
